A study of Homo sapiens with 6 samples.

Results

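The matrix metalloproteinases (MMPs), the ADAM and ADAMTS proteases and their tissue inhibitors (TIMPs) were examined in the established human carcinoma line MIA PaCa-2, derived from the pancreas, with and without recombinant human cytoglobin (rhCYGB). Members were the genes of the deposited table whose symbol is MMP, ADAM, ADAMTS or TIMP followed by a number, with A or B allowed after it for MMPs. This gave 69 of 35993 genes, of which 24 were MMPs, 22 ADAMs, 19 ADAMTS genes and 4 TIMPs. All cells were grown in DMEM with 10% FBS and 2.5% horse serum, seeded in 24-well plates and moved to 1% FBS the day before treatment. The rhCYGB group (n = 3 libraries) then received the His-tagged protein, made by the authors in E. coli, at 4 µM for 48 h, and the control group (n = 3 libraries) was left untreated, without a control protein. The comparison asks how extracellular rhCYGB altered the transcripts of a single cancer cell line.

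MMPs and ADAMTS proteases are zinc enzymes that cut extracellular matrix proteins, whereas most catalytic ADAMs sit in the membrane and release the outer part of other membrane proteins. Both kinds are made as inactive precursors, and TIMPs block the active enzymes by occupying the zinc site. In pancreatic cancer they are known for remodelling the dense matrix around the tumor and for releasing growth factor ligands, with much of the MMP supply coming from stromal cells rather than from the carcinoma cells.

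Gene counts summed to between 34838399 and 42271299 per library. Members took between 0.227% and 0.232% of the counts in untreated libraries and between 0.131% and 0.134% in rhCYGB libraries, without scaling factors. Most of these counts lay on TIMP1 and TIMP2. In untreated library 1 they held 24115 and 26411 of 81660 member counts, and in rhCYGB library 1 they held 17033 and 11876 of 52261. No library was a second copy of another, since all same-group pairs differed beyond sampling noise. The labels do not say whether the libraries came from separate cultures, so the p-values measure the spread between these libraries only. In bulk RNA, fewer cells expressing a gene and less RNA per cell cannot be told apart.

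Many of the family members were at 0 counts in these cells, at about the rate of all genes. Of the 69 genes, 30 had 0 counts in every library, 10 had too few counts to be tested, and 29 were tested. Of all 35993 genes, 15205 had 0 counts in every library, 6060 had too few counts and 14728 were tested. A count of 0 allows up to 3 counts, or 0.0669 to 0.0902 CPM (counts scaled to a common library size) depending on the library, for counting error only. Genes at 0 included the collagenases MMP8 and MMP13, the gelatinase MMP2, both matrilysins (MMP7 and MMP26), MMP12, MMP16, MMP20 and MMP27. They also included ADAM2, ADAM5, ADAM6, ADAM7, ADAM12, ADAM18, ADAM28, ADAM29, ADAM30 and ADAM33, many of which are known from the testis. Among ADAMTS genes, ADAMTS2, ADAMTS3, ADAMTS5, ADAMTS8, ADAMTS9, ADAMTS12, ADAMTS18, ADAMTS19 and ADAMTS20 were at 0, as were TIMP3 and TIMP4.

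The 10 untested members with some counts were MMP3 (0 to 7 counts), MMP9 (0 to 6), MMP10 (0 to 3), MMP21 (0 to 6), ADAM20 (0 to 8), ADAM21 (0 to 11), ADAM32 (0 to 15), ADAMTS1 (0 to 8), ADAMTS6 (0 to 4) and ADAMTS15 (0 to 5). The gelatinases, the enzymes most often assayed in invasion studies, were thus at or near 0 with and without rhCYGB. The MMP cluster of chromosome 11, from MMP7 at chr11:102391239-102401478 to MMP13 at chr11:102813724-102826461, held a single tested gene, MMP1. Positions are those of the deposited table, whose build is not named and is not GRCh38.

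Most of the expressed MMPs shared a sequence feature that the choice of members did not use. Of 23 MMPs whose coding sequence could be translated from GENCODE 29, 10 carry a furin-type site, the cleavage motif of proprotein convertases, ahead of the catalytic zinc motif. These convertases can activate such an MMP inside the secretory pathway, before it reaches the cell surface. Of these 10, 8 passed the filter (MMP11, MMP14, MMP15, MMP17, MMP23B, MMP24, MMP25 and MMP28), whereas 2 of the 13 without the site did (MMP1 and MMP19). All MMPs of the cluster described above lack the site, so site and genomic position cannot be told apart here. By edgeR's adjusted p, 3 of the 8 tested MMPs with the site rose and 4 fell, beside 39% and 38.6% of all genes tested. With 2 tested MMPs lacking the site, neither of which passed, the groups cannot be compared.

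Promoter sequence was read for the 39 of 69 members listed in RefSeq (GRCh38.p14), as the 250 bases upstream of the start site. A GC box (GGGCGG, either strand) was present in 17 of 18 promoters of tested members, in 9 of 16 promoters of members at 0 counts and in none of 5 promoters of members under the filter, beside 42.3% of all 27305 promoters. That last share takes in genes tested and not tested alike. The share among promoters of all tested genes was not counted, so 17 of 18 cannot be read as particular to these families. The TATA box letters TATAAA were found in 1 of 18 tested members, and in 7 of 39 members overall beside 11.1% of all promoters. The AP-1 letters TGAGTCA were found in 1 of 39 members and 4.16% of all promoters. CRE letters (TGACGTCA, 1.77% of all promoters) and the CHOP-ATF4 core (TGATGNAA, 3.19%) were in none of the 39. These motifs were chosen after the values were known, both strands were read, and the motifs were counted separately even where they overlap. The following promoters show the contrast, with motif letters in capitals on whichever strand they lie. MMP11 (chr22:23772599-23772848, plus strand) and MMP15 (chr16:58025504-58025753, plus strand) belong to genes that fell, ADAM17 (chr2:9555831-9556080, minus strand) to a gene that rose, and MMP7 (chr11:102530748-102530997, minus strand) to a gene at 0 counts in all 6 libraries.
MMP11: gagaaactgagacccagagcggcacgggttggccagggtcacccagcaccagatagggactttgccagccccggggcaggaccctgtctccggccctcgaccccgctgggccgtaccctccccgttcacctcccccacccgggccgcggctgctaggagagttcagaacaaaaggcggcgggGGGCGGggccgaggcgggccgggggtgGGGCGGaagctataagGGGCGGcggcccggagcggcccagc
MMP15: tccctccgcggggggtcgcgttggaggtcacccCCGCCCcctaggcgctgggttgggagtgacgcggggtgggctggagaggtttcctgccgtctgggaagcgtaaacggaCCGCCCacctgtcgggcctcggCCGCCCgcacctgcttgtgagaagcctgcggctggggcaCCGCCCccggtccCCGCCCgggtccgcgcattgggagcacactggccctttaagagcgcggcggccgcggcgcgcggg
ADAM17: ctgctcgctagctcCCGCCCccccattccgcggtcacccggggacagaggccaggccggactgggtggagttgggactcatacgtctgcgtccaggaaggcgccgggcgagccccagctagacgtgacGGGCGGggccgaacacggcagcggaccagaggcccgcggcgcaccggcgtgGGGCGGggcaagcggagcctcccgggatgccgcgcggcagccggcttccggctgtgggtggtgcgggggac
MMP7: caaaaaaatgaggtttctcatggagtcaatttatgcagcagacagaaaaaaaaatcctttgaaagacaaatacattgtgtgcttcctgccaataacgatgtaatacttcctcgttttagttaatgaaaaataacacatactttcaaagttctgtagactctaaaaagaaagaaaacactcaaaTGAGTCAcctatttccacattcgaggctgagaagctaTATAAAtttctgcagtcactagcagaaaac
The capitals mark GC boxes in the first 3 sequences, 3 in MMP11, 5 in MMP15 and 3 in ADAM17. In MMP7 they mark an AP-1 match 67 bases and a TATA match 30 bases upstream of the start site. GC boxes thus stood upstream of genes that moved in opposite directions. The promoters of the 18 tested members had a median GC content of 74.2% (56.8% to 80.8%), those of the 16 members at 0 counts 65.4%, and those of the 5 members under the filter 39.6%.

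Among the expressed members, more fell than rose with rhCYGB. The share that rose was below that of all genes by adjusted p alone, and the share that fell was above it. At 2-fold, both shares were above those of all genes. Whether these shares differ beyond sampling was not tested. How many of all genes had groups without overlap was not counted, so separation of the groups in single genes below is a description only. By edgeR's quasi-likelihood test at an adjusted p under 0.05, 7 of 29 tested members rose and 15 fell, which is 24.1% and 51.7% of them, beside 39% and 38.6% of all 14728 genes tested. With a fold change of 2 or more added, 5 rose and 7 fell (17.2% and 24.1%), beside 12.4% and 14.7% of all genes. With library totals in place of TMM scaling factors, the 2-fold counts were 4 and 10. The median log2 fold change of tested members was -0.46, beside -0.0046 for all genes tested. As the plot of levels by library shows, TIMP1, TIMP2, ADAM9, ADAM15, ADAM10 and ADAM17 were the 6 highest members in FPKM, which is scaled to transcript length, in both groups.

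**Figure D1:**
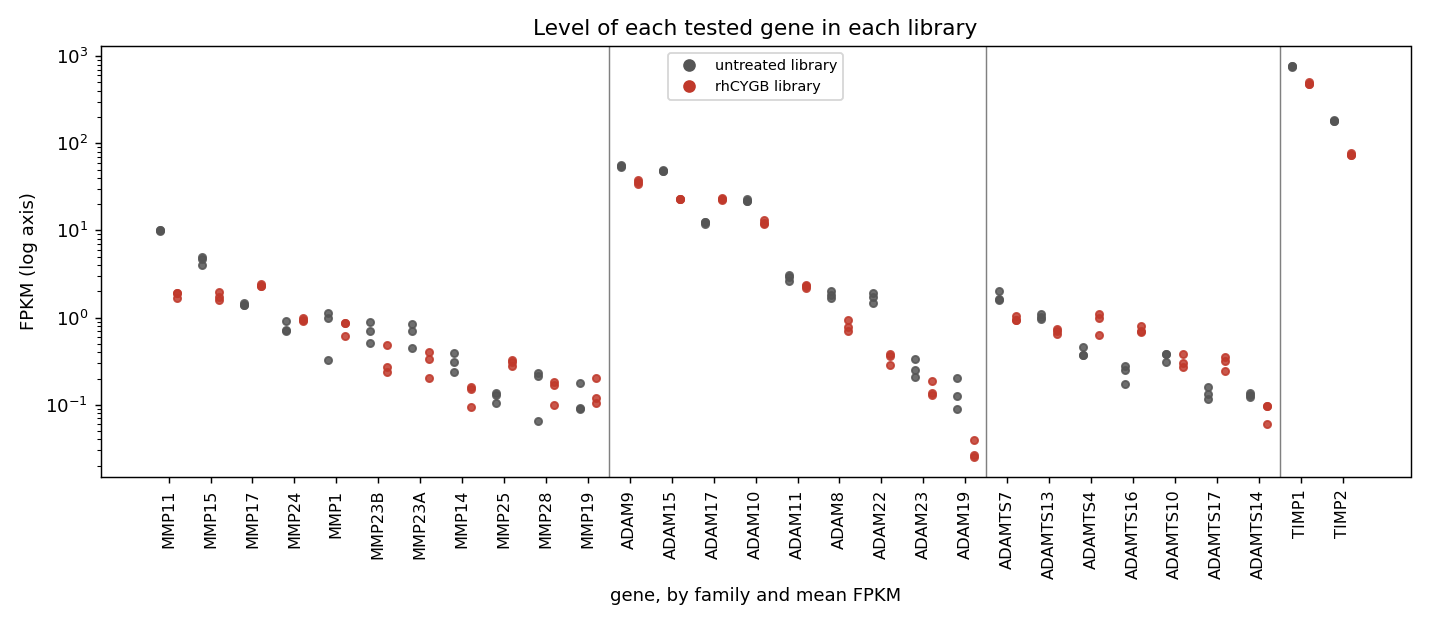
FPKM (log axis) of each of the 29 tested members in each library, ordered by family and mean FPKM, with untreated libraries in grey and rhCYGB libraries in red. TIMP1 is the highest gene in both groups, at a mean of 765 FPKM untreated and 488 FPKM with rhCYGB, and the groups separate for ADAM17, MMP11 and TIMP2.

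**Figure D2:**
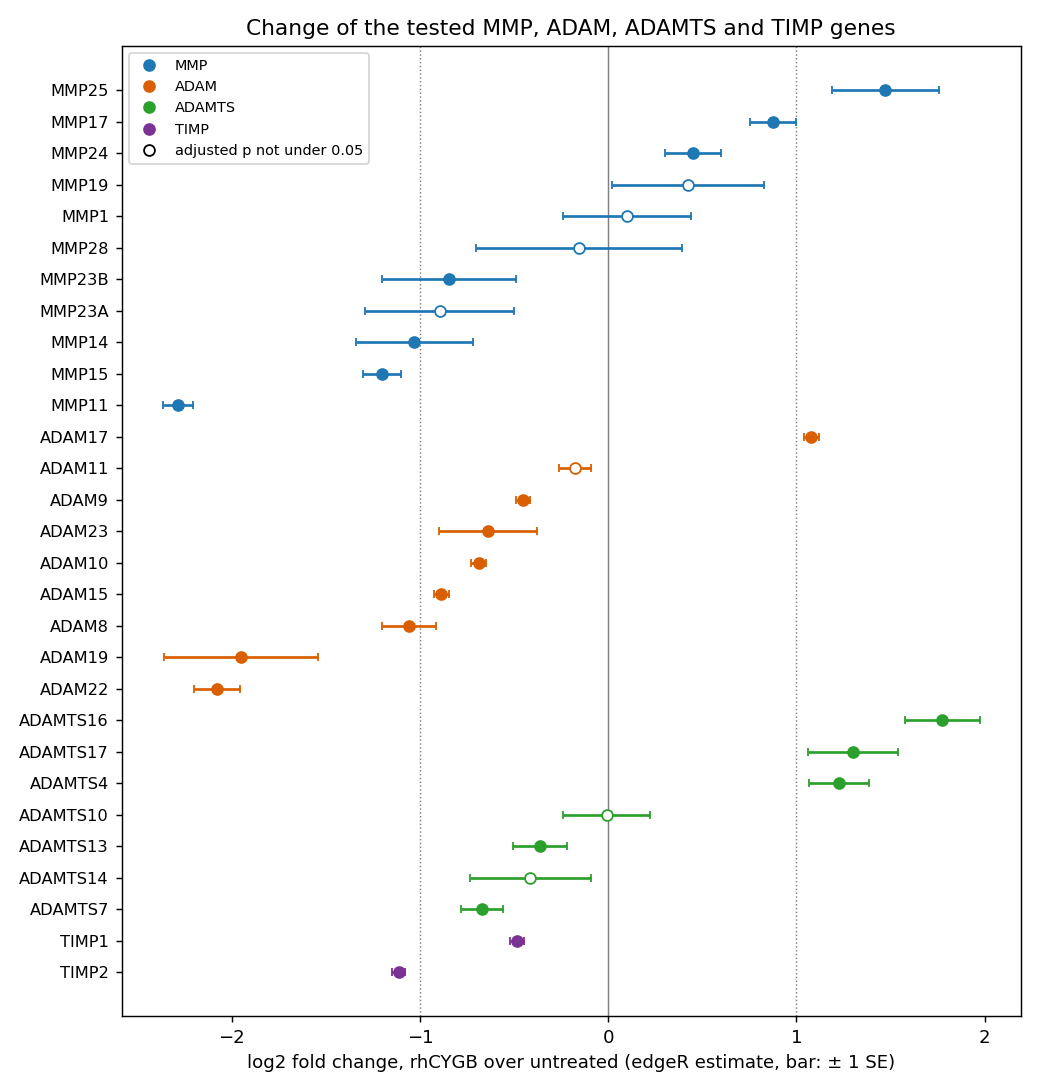
The log2 fold change (rhCYGB over untreated) of each tested member, with bars of 1 SE from edgeR and dotted lines at 2-fold; open circles are genes whose adjusted p was not under 0.05. MMP11 has the lowest value, -2.29, and ADAMTS16 the highest, 1.77.

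Among MMPs, the most abundant member was also the one that fell furthest. MMP11 (stromelysin-3; chr22:24115036-24126503), a convertase-activated enzyme usually described in the stroma of carcinomas, had 930, 1086 and 985 counts in untreated libraries and 191, 157 and 189 counts with rhCYGB. The groups were far apart, with no overlap. MMP11 fell by 2.29 on the log2 scale (SE 0.0797, edgeR adjusted p = 9.33e-13), which is 4.89-fold lower. Its share of the summed MMP FPKM went from between 50.2% and 51.6% in untreated libraries to between 18.8% and 21.0% with rhCYGB.

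Membrane-type MMPs, which are anchored at the cell surface, moved in both directions. MMP14 and MMP15, which span the membrane, fell, whereas MMP17 and MMP25, which are held by a GPI lipid anchor, rose. MMP15 (chr16:58059658-58080805) had 660, 918 and 869 counts untreated and 288, 329 and 305 counts with rhCYGB, with every rhCYGB library under every untreated library. It fell by 1.20 on the log2 scale (SE 0.101, edgeR adjusted p = 2.87e-08). MMP14, the classical activator of pro-MMP2, was barely expressed, with 47, 70 and 39 counts untreated and 27, 23 and 16 counts with rhCYGB. It fell by 1.03 (SE 0.312, edgeR adjusted p = 0.00736), and the adjusted p was 0.0530 without untreated replicate 2.

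MMP17 rose from a mean of 1.43 ± 0.055 FPKM to 2.34 ± 0.066 FPKM (SD, n = 3), a log2 fold change of 0.88 (edgeR adjusted p = 8.85e-06). By FPKM it became the most abundant MMP in rhCYGB libraries, whereas MMP15 held more counts than MMP17 in each of them. MMP25, known from neutrophils, rose by 1.47 on the log2 scale (edgeR adjusted p = 2.39e-04) from a mean under 50 counts. Its antisense neighbour MMP25-AS1, which shares 7246 bases with it, had 62, 64 and 59 counts untreated and 113, 111 and 123 counts with rhCYGB. The strand setting of the counting is not given in the sources used here, so reads of this pair may not be separated. MMP24, a transmembrane member, rose by 0.45 (edgeR adjusted p = 0.0116). Its adjusted p was 0.0506 without untreated replicate 2, 0.0700 with upper-quartile factors and 0.0880 with library totals. A link between the anchor and the direction of change was not tested. With limma the adjusted p of MMP24 was 0.0803 on log2(FPKM + 1) and 0.113 on log2(FPKM + 0.1). The locus of MMP24 overlaps MMP24OS and MMP24-AS1-EDEM2.

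The remaining MMPs were low. MMP1, the interstitial collagenase, had a log2 fold change of 0.10 (SE 0.342, edgeR adjusted p = 0.801), and untreated library 3 held 29 counts beside 90 and 96 in the other untreated libraries. MMP19 (0.42, adjusted p = 0.351) and MMP28 (-0.15, adjusted p = 0.808) did not pass the test. MMP23B had -0.85 (adjusted p = 0.0412) and its pseudogene MMP23A -0.90 (adjusted p = 0.0510). The pair are near-identical copies whose reads the counting could have split, so neither value can be read alone. Leaving out untreated replicate 1 or 3 or rhCYGB replicate 1 or 2 raised the adjusted p of MMP23B to between 0.0871 and 0.175. Leaving out untreated replicate 2 gave MMP23A an adjusted p of 0.0314. MMP23A also passed with DESeq2 size factors, upper-quartile factors, library totals or limma on either FPKM scale (adjusted p from 0.00901 to 0.0484).

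Of 9 tested ADAM genes, 7 fell, ADAM17 rose and ADAM11 did not pass the test. By the zinc-binding motif in the translated protein, 12 ADAMs can be proteases and 8 lack the motif. Of the 6 tested ADAMs with the motif, 1 rose and 5 fell, beside 39% and 38.6% of all genes tested. Of the 3 tested ADAMs without it (ADAM11, ADAM22 and ADAM23), which act in cell adhesion and as neuronal receptors, none rose and 2 fell.

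ADAM17 (TACE; chr2:9628615-9695959) releases TNF and several EGF receptor ligands from the cell surface. It had 2102, 2634 and 2355 counts in untreated libraries and 4370, 4157 and 4536 counts with rhCYGB. All 3 treated libraries lay above the highest untreated one. ADAM17 rose 2.11-fold, a log2 fold change of 1.08 (SE 0.0419, edgeR adjusted p = 2.97e-12). Its log2 fold change was under 1 with upper-quartile factors (0.94), library totals (0.91) and limma on log2(FPKM + 1) (0.86) or log2(FPKM + 0.1) (0.91), so it lost the 2-fold call there while it kept passing the adjusted p. The neighbouring gene IAH1 shares 1257 bases with it and had 867 to 1110 counts untreated and 1148 to 1429 counts with rhCYGB.

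ADAM10 (chr15:58881008-59041906), the closest relative of ADAM17 and the main sheddase of Notch and cadherins, fell by 0.69 (SE 0.0396, edgeR adjusted p = 3.15e-10). Its level was 21.9, 21.9 and 22.8 FPKM untreated and 13.0, 11.8 and 12.2 FPKM with rhCYGB. On this scale per length, ADAM17 was below ADAM10 in untreated libraries and above it with rhCYGB, whereas ADAM10 held more counts than ADAM17 in all 6 libraries. The ratio of ADAM17 to ADAM10 FPKM within a library was 0.543, 0.569 and 0.542 untreated and 1.72, 1.96 and 1.95 with rhCYGB (exact permutation test, two-sided, p = 0.1, the smallest that 3 libraries against 3 can give). ADAM17 made up between 8.25% and 8.60% of the summed ADAM FPKM in untreated libraries and between 22.8% and 24.3% with rhCYGB. These within-library ratios were chosen after the values were known.

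ADAM9 was the most abundant ADAM by FPKM in both groups, with 9152, 10690 and 9807 counts untreated and 6622, 5661 and 6640 counts with rhCYGB. It fell by 0.46 (SE 0.037, edgeR adjusted p = 1.93e-08). ADAM15, which binds integrins through its disintegrin domain, fell by 0.89 (edgeR adjusted p = 9.81e-12), from 48.1 ± 1.0 to 23.0 ± 0.22 FPKM (SD, n = 3), 1.85-fold lower by the counts. Both remained among the 5 highest members with rhCYGB.

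Of the less abundant ADAMs, ADAM22, ADAM8 and ADAM19 fell by 2-fold or more. ADAM22 (chr7:87563458-87832204), a receptor for LGI proteins without protease activity, had 651, 644 and 754 counts untreated and 157, 113 and 157 counts with rhCYGB. These groups did not overlap, and ADAM22 fell by 2.08 (SE 0.122, edgeR adjusted p = 3.99e-10). ADAM8, an active protease known from leukocytes and from invasive pancreatic cancer, had 264, 282 and 238 counts untreated and 98, 105 and 126 counts with rhCYGB, and fell by 1.06 (SE 0.144, edgeR adjusted p = 7.22e-06). ADAM19 fell by 1.95 (SE 0.408, edgeR adjusted p = 4.70e-04) from a mean under 50 counts. ADAM23 fell by 0.64 (adjusted p = 0.0352) with groups that overlapped in CPM, and leaving out untreated replicate 1 or 2 or rhCYGB replicate 2 or 3 raised its adjusted p to between 0.0632 and 0.181. ADAM11 had a log2 fold change of -0.18 (SE 0.0854, adjusted p = 0.0717), with an adjusted p of 0.0270 without untreated replicate 3. ADAM11 also passed with upper-quartile factors, library totals, limma on either FPKM scale or at least 10 counts in every library (adjusted p from 0.00240 to 0.0479).

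ADAMTS genes were low. Of 7 tested, 3 rose at 2-fold and none fell, beside 12.4% and 14.7% of all genes tested. ADAMTS4 (aggrecanase-1; chr1:161154092-161168844), the tested member of the proteoglycan-cleaving group, had 181, 174 and 160 counts untreated and 433, 244 and 388 counts with rhCYGB. The lowest rhCYGB library was above the highest untreated one, although the rhCYGB libraries spread widely. ADAMTS4 rose by 1.23 (SE 0.161, edgeR adjusted p = 4.75e-06). ADAMTS16 (chr5:5140443-5320417) had 51, 68 and 38 counts untreated and 154, 143 and 172 counts with rhCYGB, a rise of 1.77 (SE 0.198, edgeR adjusted p = 8.05e-07). ADAMTS17, a gene of short stature syndromes that acts on the fibrillin matrix, had 30, 49 and 37 counts untreated and 68, 83 and 97 counts with rhCYGB, a rise of 1.30 (SE 0.242, edgeR adjusted p = 1.62e-04). The groups did not overlap for any of these 3 genes, which were named because they were called at 2-fold.

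ADAMTS7, which degrades cartilage oligomeric matrix protein, was the most abundant ADAMTS gene by FPKM in untreated cells, with 363, 422 and 480 counts untreated and 232, 211 and 252 counts with rhCYGB. It fell by 0.67 (SE 0.112, edgeR adjusted p = 5.71e-05). ADAMTS13, which cuts von Willebrand factor, fell by 0.36 (adjusted p = 0.0332), and its locus overlaps REXO4. Its adjusted p was between 0.0527 and 0.131 without untreated replicate 1 or 2 or rhCYGB replicate 1 or 3. Of the procollagen N-proteinases, only ADAMTS14 was tested, with a log2 fold change of -0.41 (SE 0.321, adjusted p = 0.250). ADAMTS10 had -0.01 (SE 0.231, adjusted p = 0.976).

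Both expressed inhibitors fell, and they were the most abundant members of all. TIMP2 (chr17:76849059-76921469), which both inhibits MMPs and helps MMP14 to activate pro-MMP2, had 26411, 32199 and 28727 counts untreated and 11876, 11020 and 12312 counts with rhCYGB. It fell by 1.11 (SE 0.0342, edgeR adjusted p = 2.31e-13), or 2.16-fold. TIMP1 (chrX:47441835-47446188), an inhibitor of most soluble MMPs, had 24115, 28559 and 24871 counts untreated and 17033, 15159 and 16161 counts with rhCYGB, and fell by 0.49 (SE 0.0362, edgeR adjusted p = 6.85e-09). For both genes every rhCYGB library was below every untreated one. The ratio of TIMP2 to TIMP1 FPKM went from between 0.231 and 0.243 to between 0.147 and 0.160. TIMP3 and TIMP4 had 0 counts in each of the 6 libraries.

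Added over each family, FPKM fell for MMPs, ADAMs and TIMPs in every rhCYGB library. The MMP sum was 19.8 ± 0.49 FPKM untreated and 9.11 ± 0.079 FPKM with rhCYGB (SD, n = 3), a ratio of 0.460. The ADAM sum went from 144.5 ± 0.30 to 98.0 ± 2.7 FPKM, a ratio of 0.678, and the TIMP sum from 947 ± 17 to 562 ± 8.8 FPKM, a ratio of 0.594. Each had p = 0.1 in a two-sided exact permutation test. The ADAMTS sum was 4.05 ± 0.092 and 4.04 ± 0.33 FPKM (exact permutation p = 1), with ADAMTS7 and ADAMTS13 lower and ADAMTS4, ADAMTS16 and ADAMTS17 higher. In CPM the ADAMTS ratio was 1.20. The ratio of summed TIMP to summed MMP FPKM was 47.1, 48.7 and 47.5 untreated and 62.3, 61.5 and 61.4 with rhCYGB (exact permutation p = 0.1). In CPM the TIMP and MMP sums fell to more similar degrees, with ratios of rhCYGB to untreated of 0.581 and 0.541.

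Genes that process or guide these proteases were described from a list of 26, of which 18 were tested. Of these, 4 rose and 10 fell at an adjusted p under 0.05, beside 39% and 38.6% of all genes tested. Proprotein convertases, which remove the inhibitory prodomain, fell in all 3 tested cases, FURIN by 0.47 (edgeR adjusted p = 7.53e-07), PCSK6 by 0.30 (adjusted p = 6.41e-04) and PCSK7 by 0.86 (adjusted p = 1.36e-09) on the log2 scale. PCSK5 was at 0 counts.

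The partners of ADAM17 split. RHBDF1 (iRhom1), which carries ADAM17 out of the endoplasmic reticulum, had 573, 694 and 561 counts untreated and 1964, 1749 and 1984 counts with rhCYGB. It rose by 1.84 (SE 0.0585, edgeR adjusted p = 3.49e-13). Its paralog RHBDF2 rose by 0.51 (adjusted p = 2.26e-07), whereas FRMD8, which stabilises the iRhoms at the cell surface, fell by 0.77 (adjusted p = 1.96e-10). ADAM17 and both iRhom genes thus rose and FRMD8 fell, beside 39% and 38.6% of all genes tested. Whether their changes are linked was not tested.

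The TspanC8 tetraspanins, which escort ADAM10, showed no rise that passed the test. Of 6 genes, 4 fell at an adjusted p under 0.05, beside 38.6% of all genes tested. These were TSPAN10 (-1.65, from 11 to 13 counts untreated), TSPAN14 (-0.21), TSPAN15 (-0.58) and TSPAN17 (-0.17). TSPAN5 (-0.56, adjusted p = 0.269) and TSPAN33 (0.30, adjusted p = 0.0852) did not pass, though TSPAN33 had an adjusted p of 0.0302 without rhCYGB replicate 3. TSPAN10 no longer passed without untreated replicate 1, 2 or 3 or rhCYGB replicate 1 or 3 (adjusted p from 0.0765 to 0.138).

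**Figure D3:**
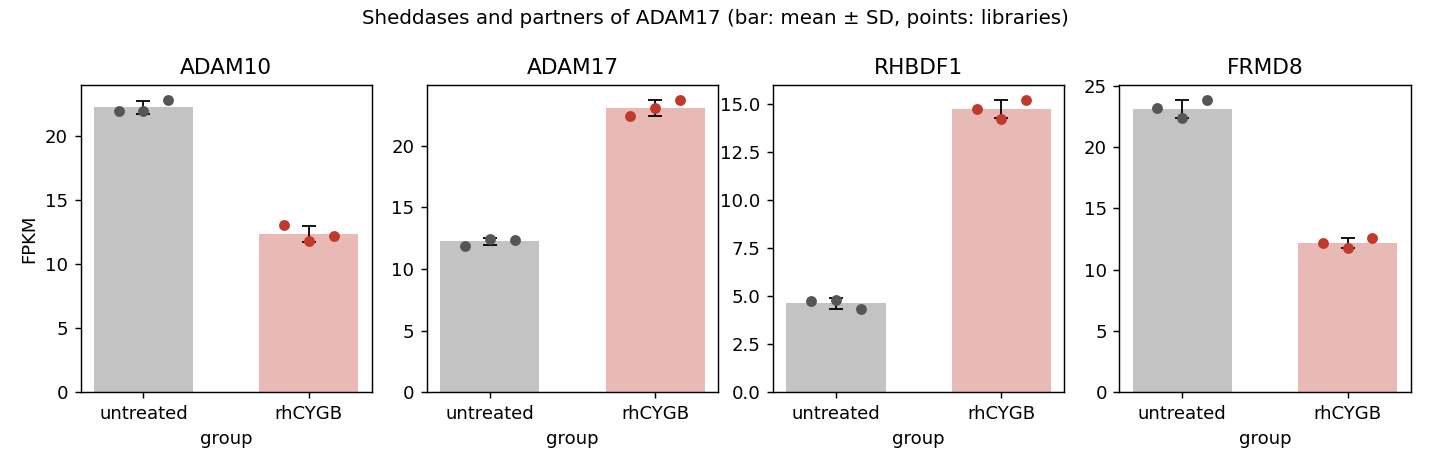
FPKM of ADAM10, ADAM17 and the ADAM17 partners RHBDF1 and FRMD8 in each library (points), with the group mean and SD (bars, n = 3). ADAM10 and FRMD8 are lower and ADAM17 and RHBDF1 are higher in all 3 rhCYGB libraries than in any untreated library.

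Other genes around the proteases moved unevenly. LRP1, an endocytic receptor that clears MMPs and TIMP complexes, had 765, 959 and 965 counts untreated and 344, 313 and 408 counts with rhCYGB, and fell by 1.14 (edgeR adjusted p = 9.76e-09). BSG (CD147 or EMMPRIN), an inducer of MMPs, fell by 0.25 (adjusted p = 7.89e-06). Among the ADAMTS-like genes, which lack a protease domain, ADAMTSL5 rose by 1.51 (417, 514 and 482 counts untreated and 1221, 1092 and 1203 with rhCYGB) and ADAMTSL4 by 0.80, whereas THSD4 had -0.02 (adjusted p = 0.844), or -0.18 (adjusted p = 0.0269) with library totals. Of the inhibitors other than TIMPs, RECK and A2M were at 0 counts, SPOCK3 was under the filter, and SPOCK1 had -0.29 (adjusted p = 0.321), or -0.71 (adjusted p = 0.0145) without rhCYGB replicate 3.

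For 10 members with at least 50 counts in every library and more than 1 deposited transcript, the shares of transcripts were compared as a description. The shares are the authors' StringTie assignment of reads to known transcripts, and they were not tested. In ADAM10 and ADAM11, a transcript that was minor in untreated libraries gained share. Shares also moved without overlap in other members. In ADAM9, NM_003816 went from 89.7% ± 4.4 to 75.2% ± 8.3, and in ADAM15, NM_207191 went from 36.2% ± 3.8 to 22.6% ± 0.81. In ADAM10, transcript NM_001320570 took 564, 1217 and 1202 counts untreated and 2534, 2424 and 2427 counts with rhCYGB, so its share was 9.0% ± 2.8 and 41.9% ± 3.0 (SD, n = 3) while the gene as a whole fell. The main transcript, NM_001110, had 9267, 10541 and 9820 counts untreated and 3904, 2938 and 3478 counts with rhCYGB.

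In ADAM11, whose total did not pass the test, NM_001318933 had 0, 20 and 0 counts untreated and 224, 201 and 195 counts with rhCYGB. The ADAM11 transcripts are listed at 4614 and 4610 bases, and how well reads tell them apart was not tested. In ADAM22, NM_016351 held 454, 534 and 542 counts untreated and was listed at 0 in all rhCYGB libraries. The rhCYGB counts of ADAM22 lay mostly on NM_001324418 (121, 12 and 157 counts) and NM_001324419 (19, 69 and 0 counts), which untreated libraries held with at most 1 count. The split between these 2 transcripts differed from library to library, so their single shares carry little precision. MMP11 stayed on one protein-coding transcript, NM_005940, with 97.2% ± 1.9 of its counts untreated (SD, n = 3) and all of them with rhCYGB. ADAM8 shares overlapped between groups for all 3 transcripts.

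**Figure D4:**
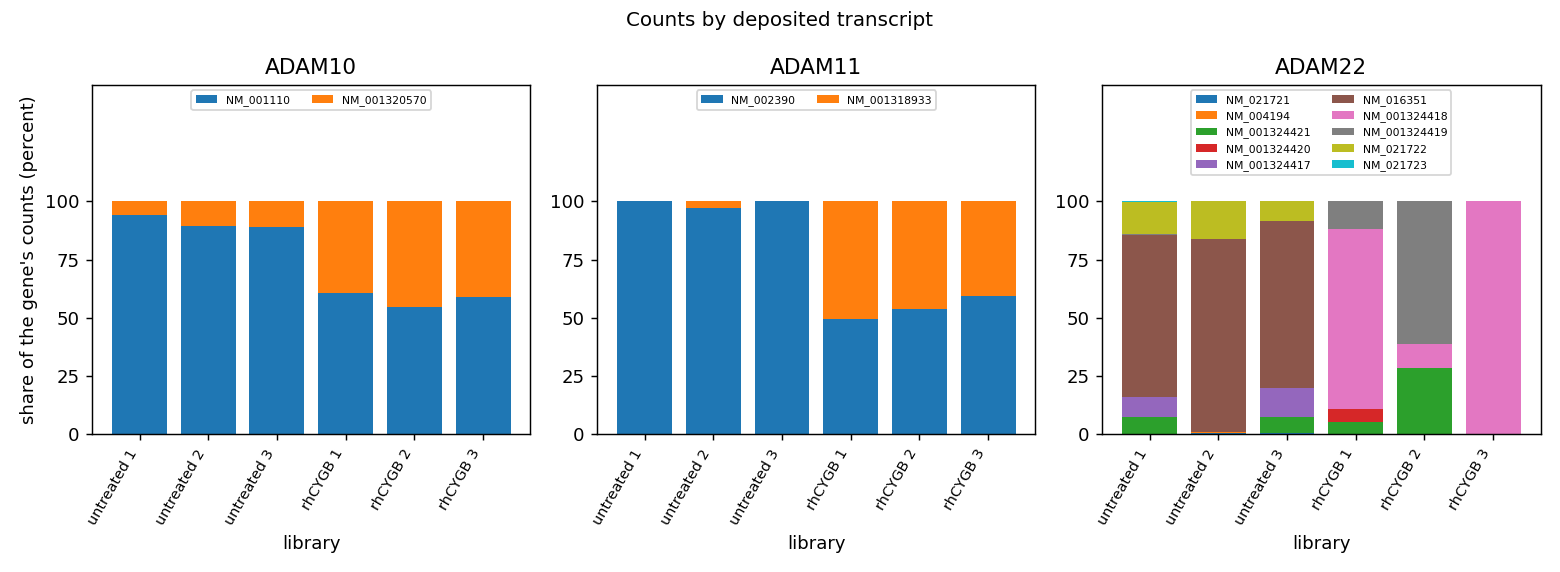
Share of the counts of ADAM10, ADAM11 and ADAM22 (percent) assigned to each deposited transcript in each of the 6 libraries, stacked to 100. The second transcript of ADAM10 goes from a mean of 9.0% to 41.9%, that of ADAM11 from 0.978% to 45.8%, and NM_016351 of ADAM22 is absent from the bars of rhCYGB libraries.

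Cell type markers were checked because several MMPs are usually made by stromal cells. KRT8, KRT18, KRT19 and VIM were abundant in all libraries and EPCAM was at 0. KRT8 (-0.81) and KRT19 (-0.61) fell and VIM rose (0.55), and KRT18 had 0.04 (edgeR adjusted p = 0.315). The summed level of these 5 genes was 11761 to 12160 CPM untreated and 14501 to 15222 CPM with rhCYGB. Of 6 fibroblast or stellate markers, DCN and LUM were at 0, and COL3A1 had 146, 190 and 155 counts untreated and 2, 2 and 9 with rhCYGB. ACTA2, with the most counts of them, had 210, 234 and 243 counts untreated and 192, 180 and 196 with rhCYGB, a log2 fold change of -0.08 (edgeR adjusted p = 0.548). The summed level of this list was 9.72 to 9.91 CPM untreated and 5.22 to 5.67 CPM with rhCYGB. Of 3 leukocyte markers, PTPRC and CD3E were at 0 and the lysosomal gene CD68 was higher with rhCYGB, which put the list at 34.3 to 38.0 CPM untreated and 70.4 to 72.4 CPM with rhCYGB. Of 2 endothelial markers, PECAM1 was at 0 and CDH5 fell, which put the list at 109 to 122 CPM untreated and 10.5 to 13.6 CPM with rhCYGB. The part of these genes in the changes of MMP11 or other members was not tested.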

How the data were processed

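RNA from 3 untreated and 3 rhCYGB-treated MIA PaCa-2 samples was sequenced paired-end from stranded mRNA libraries. HISAT2 served the authors for mapping the trimmed reads and StringTie for transcript assembly (versions 2.1.0 and 2.1.3b in the submitters' processing notes, which also list FastQC 0.11.7). Those notes name the build mm10, although the deposited genes are human. The read counts per gene and per transcript are whole numbers, deposited by the authors with no normalization. FPKM, as deposited by the authors, is scaled to transcript length and depth. The deposited TPM values were not used. Samples were grouped from their labels.

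Counts were tested with edgeR 4.0.16 in R 4.3.3 (filterByExpr, TMM factors, quasi-likelihood test on all 6 libraries without a block), with Benjamini-Hochberg adjustment over the 14728 genes tested. CPM values use TMM-scaled library sizes, and log2 fold changes are the estimates of the edgeR fit at its default settings. A prior count of 2 was added where counts of single libraries were put on a log2 scale. Calls were an adjusted p under 0.05, alone or with a fold change of at least 2. Summed FPKM and ratios were compared with two-sided exact permutation tests. The fit was tested on simulated counts.

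Every tested member is named with its fold change. Counts per library are given for members called at 2-fold with a mean of at least 50 counts in the higher group, for the most abundant member of each family, and for TIMPs. The members, the regulator list and the markers were chosen with earlier results of these data known. No protein table was at hand, so protein motifs were found in GENCODE 29 coding sequences, translated for 66 members. Of the 69 deposited member positions, 6 overlap the gene's GRCh38 position, so GRCh38 was used for promoters and proteins only. Alternatives were DESeq2 size factors, upper-quartile factors, library totals, the DESeq2 1.42.0 Wald test, no filter on low counts, limma 3.58.1 on FPKM (log2 scale, pseudocounts of 1 and 0.1), at least 10 counts in every library, transcript sums, CPM for FPKM sums, 100 counts for transcript shares, a replicate block, and leaving out each library.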

Additional observations from a re-analysis of the deposited data

How the results depend on the processing

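Under the count, scaling, filter and replicate alternatives, 427 of the members' values kept their side of the threshold. These include sign changes of MMP1, MMP28 and ADAMTS10, none of which passed in any setting. A further 12 values passed the threshold newly, 22 no longer passed it and 0 passing values changed sign. Values that crossed it belonged to ADAM11, ADAM23, ADAMTS13, MMP14, MMP23A, MMP23B and MMP24, and among regulators to SPOCK1, TSPAN10, TSPAN33 and THSD4. The number of members that rose at 2-fold was 5, and it was 0 with limma on log2(FPKM + 1) and 1 on log2(FPKM + 0.1). ADAM17 was among those that dropped, also with upper-quartile factors and library totals. By adjusted p alone limma called 6 higher on either scale, beside 7 by edgeR. On log2(FPKM + 1), limma called 1977 of all genes at 2-fold against 3998 by edgeR. The members' median of -0.46 was -0.60 with upper-quartile factors, -0.62 with library totals and -0.21 with limma on log2(FPKM + 1). Upper-quartile factors moved the median of all genes by -0.14 and library totals by -0.16, and 1395 of 4114 genes called at 2-fold were then higher with library totals, against 1833 of 3998. In CPM in place of FPKM, the ratios of the family sums were 0.541 for MMPs, 0.750 for ADAMs, 0.581 for TIMPs and 1.20 for ADAMTS genes, the last of which changed side of 1. With each library left out in turn, the MMP ratio ranged from 0.456 to 0.466 and the ADAMTS ratio from 0.953 to 1.03, again on both sides of 1. With at least 100 counts in every library, 8 members entered the transcript shares in place of 10. Same-numbered libraries did not deviate together (correlations of -0.048, 0.00502 and 0.00552), so the numbers gave no sign of pairing. With 3 libraries per group this cannot exclude that samples were matched. With the replicate number as a block, 7 members rose and 13 fell, and ADAMTS13 (adjusted p = 0.0508) and MMP23B (adjusted p = 0.0530) no longer passed. With it TSPAN10 (adjusted p = 0.0582) no longer passed either, and no other tested member or regulator changed its call. Depth limits members with few counts, such as MMP25, MMP14 and ADAM19, whose SEs were 0.285, 0.312 and 0.408 on the log2 scale.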
